A study of Mus musculus with 18 samples.

Results

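Genes that mark the macrophages living in the undamaged mouse heart were followed through the first days of myocardial infarction, 10 in all: Lyve1, Timd4, Cd163, Folr2, Mrc1, Cbr2, F13a1, Cd209f, Cd209g and Fcna. They are 10 of the 30583 genes in the count table and were taken from a list of gene names, without a threshold on measured values. The list was chosen with earlier results of these data known. The tissue came from 18 male C57BL/6JR mice aged 12 weeks, in 6 groups of 3. In 5 groups the left anterior descending coronary artery was tied and the heart taken 10 min later or after 1, 6, 24 or 72 h. In the sham group, labelled as 0 h, the suture was passed around the artery without being tied. Per the labels, the mice received pentobarbital for surgery and isoflurane at 1 to 3% before killing. No pentobarbital dose is recorded for the sham mice. In the labels of the ligated mice the dose climbs with time, also within groups. It runs from 50 mg/kg in the first 10 min mouse to 63 mg/kg in the last 72 h mouse. The series text gives 50 mg/kg. If the labels hold, dose and time cannot be told apart. RNA was taken from the myocardium of the infarcted left ventricle. The labels also name cardiomyocytes as the cell type, but no step that separates cells is described, so the libraries are read here as whole tissue, in which fewer cells of a type and less RNA per cell cannot be told apart.

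Resident cardiac macrophages are seeded largely before birth and renew themselves locally with little input from blood monocytes. They clear dying cells and debris, scavenge haemoglobin and matrix fragments, and lie along vessels and between myocytes. Most of the genes followed here are receptors for this work: for hyaluronan (Lyve1), phosphatidylserine on dying cells (Timd4), haemoglobin bound to haptoglobin (Cd163), folate (Folr2) and mannose-bearing glycoproteins (Mrc1). After ligation of a coronary artery, resident macrophages are known to be lost from the ischaemic area, while neutrophils and then monocytes enter it and monocyte-derived macrophages accumulate.

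Total gene counts ran from 18199172 to 25062351 per library. Libraries were made from poly(A) RNA by random priming and PCR, without molecular identifiers, so intervals and limits drawn from counts cover counting error only. Macrophage transcripts were present in every library: 18 genes shared by most macrophages, among them Csf1r, Adgre1 and Cd68, summed to 474 ± 34.3 CPM, or counts scaled to library size, in sham hearts (mean ± SD, n = 3 mice, as for all means that follow). The 7 cardiomyocyte markers summed to 61970 ± 2146 CPM in sham hearts and to 17788 ± 2851 CPM at 72 h. CPM here are scaled by the trimmed mean of M-values (TMM), which sets the bulk of genes level between libraries. With TMM the median log2 change over all genes was −0.01 (6 h), 0.01 (24 h) and 0.03 (72 h), and with plain library-size scaling it was −0.12, 0.20 and 0.61. Genes called higher then made up 40.6%, 75.5% and 79.9% of called genes, in place of 57.2%, 54.0% and 51.4%. Changes at 24 h and 72 h are therefore relative to the bulk of genes.

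The upstream sequences of 5 members are shown because these genes carry the results below: Mrc1, F13a1, Fcna and Folr2 were higher at 72 h under each analysis setting tried, and Timd4 was lower at 6, 24 and 72 h. Each runs 5′ to 3′ on the gene's strand and ends just before the annotated gene, in RefSeq coordinates of GRCm38. Capitals mark matches on either strand to the core of the PU.1 site, GAGGAA, and to the MAF core, TGCTGA, recognised by the macrophage transcription factors PU.1 and MAF. The AP-1 site, TGANTCA, was searched too and had no match in these 5. PU.1 matches overlap no MAF match.
Mrc1, chr2:14229164-14229391, plus strand: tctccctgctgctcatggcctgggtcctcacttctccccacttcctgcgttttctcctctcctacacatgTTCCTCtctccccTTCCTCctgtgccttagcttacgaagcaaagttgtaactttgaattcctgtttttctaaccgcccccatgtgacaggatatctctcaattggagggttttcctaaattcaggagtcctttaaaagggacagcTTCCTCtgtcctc
F13a1, chr13:37050245-37050494, minus strand: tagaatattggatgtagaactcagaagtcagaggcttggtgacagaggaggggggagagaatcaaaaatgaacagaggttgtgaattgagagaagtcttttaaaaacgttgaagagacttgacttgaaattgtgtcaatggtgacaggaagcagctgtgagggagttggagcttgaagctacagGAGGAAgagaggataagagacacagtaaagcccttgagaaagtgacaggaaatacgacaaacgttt
Fcna, chr2:25628031-25628224, minus strand: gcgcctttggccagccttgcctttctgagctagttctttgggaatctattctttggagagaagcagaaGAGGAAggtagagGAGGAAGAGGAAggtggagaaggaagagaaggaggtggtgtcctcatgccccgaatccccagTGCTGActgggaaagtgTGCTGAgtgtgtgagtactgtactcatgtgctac
Folr2, chr7:101857195-101857440, minus strand: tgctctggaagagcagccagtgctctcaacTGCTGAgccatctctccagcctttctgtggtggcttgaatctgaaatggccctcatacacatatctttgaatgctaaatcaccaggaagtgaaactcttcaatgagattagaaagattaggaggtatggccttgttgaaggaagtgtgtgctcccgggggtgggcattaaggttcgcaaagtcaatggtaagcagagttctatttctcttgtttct
Timd4, chr11:46810549-46810798, plus strand: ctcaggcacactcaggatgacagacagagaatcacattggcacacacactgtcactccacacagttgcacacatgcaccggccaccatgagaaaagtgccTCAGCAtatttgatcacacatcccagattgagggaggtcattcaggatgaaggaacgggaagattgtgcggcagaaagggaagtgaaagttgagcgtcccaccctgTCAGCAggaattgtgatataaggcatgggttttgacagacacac

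The Mrc1 stretch of 228 bases held 3 PU.1 cores, the Fcna stretch of 194 bases held 3 PU.1 cores (the last 2 side by side) and 2 MAF cores, and the F13a1 stretch of 250 bases held 1 PU.1 core. Folr2 had 1 MAF core in 246 bases and Timd4 had 2 in 250 bases. Among 32817 RefSeq promoters, a PU.1 core occurred in 21.2% of stretches of 228 bases, 18.3% of those of 194 bases and 23.3% of those of 250 bases. A MAF core occurred in 12.6%, 15.9% and 16.1% of stretches of 194, 246 and 250 bases. The Cd163 stretch of 250 bases and the Cbr2 stretch of 157 bases held no match to any of the 3 motifs. A match describes the letters and is not evidence of binding.

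Between genes, levels were compared as CPM per kilobase of exon. In sham hearts the order was Cbr2 at 11.3 ± 0.804, Lyve1 at 9.57 ± 0.999, F13a1 at 5.41 ± 0.664, Mrc1 at 3.84 ± 0.609, Cd163 at 3.31 ± 0.164, Folr2 at 2.50 ± 0.190, Fcna at 1.61 ± 0.322 and Timd4 at 0.818 ± 0.0755 CPM per kilobase. Cbr2 and Lyve1 gave the largest shares of the members' summed level, 29.5% ± 0.700 and 24.9% ± 1.11. At 72 h the leading 3 were Cbr2 at 21.7 ± 6.03, Mrc1 at 21.04 ± 1.36 and F13a1 at 19.0 ± 1.72 CPM per kilobase, and Lyve1 stood at 4.51 ± 1.69. The share of Lyve1 in the sum went from 24.9% in sham to 31.0% ± 3.38 at 6 h and 5.33% ± 1.11 at 72 h, while that of Mrc1 went from 9.97% ± 0.988 in sham to 25.8% ± 4.32 at 72 h. Timd4 went from 2.15% ± 0.331 to 0.406% ± 0.108. The sum itself was 38.4 ± 2.49 CPM per kilobase in sham, 52.6 ± 11.3 at 6 h, 50.3 ± 5.03 at 24 h and 83.0 ± 14.5 at 72 h. Timd4 remained the scarcest of the 8 in every group.

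**Figure D1:**
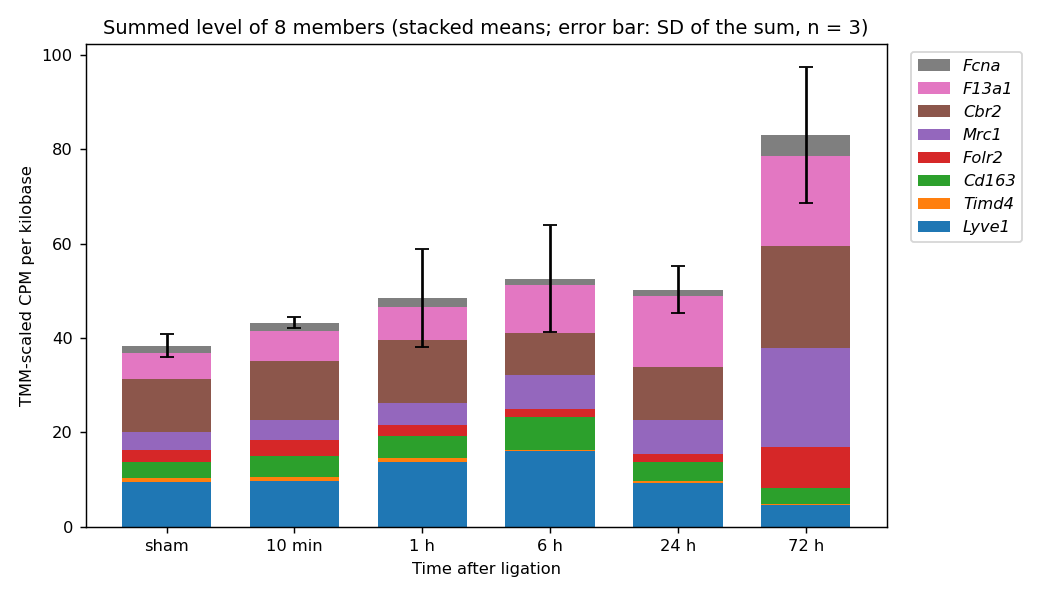
Stacked mean TMM-scaled CPM per kilobase of the 8 members that passed the low-count filter, for sham and 5 times after ligation; the error bar is the SD of the sum over 3 mice. Lyve1 gave 24.9% of the sum in sham and 5.33% at 72 h, and Mrc1 9.97% and 25.8%.

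Cd209f and Cd209g, C-type lectins of the DC-SIGN family, were too low to test. Cd209f (chr8:4102787-4105835, minus strand) had 1, 3 and 3 counts in the sham libraries, 2, 8 and 4 at 10 min, 4, 8 and 2 at 1 h, and 8, 2 and 3 at 72 h. Cd209g (chr8:4134098-4137707, plus strand) had at most 3 counts in a library and 0 in all libraries of the 1 h and 6 h groups, where a count of 0 allows up to 3 counts. No fold change is given for either. The other 8 members were tested with edgeR's quasi-likelihood test in one fit of 18 libraries, and a gene was called at a Benjamini-Hochberg adjusted p below 0.05 over 16311 genes. At 10 min and at 1 h after ligation no member was called, where 0.0736% and 0.294% of all genes were called against sham. No member had an unadjusted p below 0.05 at either time.

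At 6 h, 3 of the 8 members were called higher (Cd163, Mrc1, F13a1), beside 16.3% of all genes, and 1 was called lower (Timd4), beside 12.2%. At 24 h, 2 were higher (Mrc1, F13a1), beside 23.7% of all genes, and 1 was lower (Timd4), beside 20.2%. At 72 h, 5 were higher (Mrc1, Folr2, F13a1, Fcna, Cbr2), beside 34.2% of all genes, and 2 were lower (Lyve1, Timd4), beside 32.2%. Only Cd163 was not called at 72 h. With library-size scaling the 72 h counts became 6 higher, with Cd163 added, and 0 lower, Lyve1 and Timd4 no longer being called. Both limma fits on log2 FPKM gave 5 higher and 0 lower. FPKM is scaled to library size too, so these settings share their scaling. The members' median log2 change from sham was 0.27 at 6 h, −0.01 at 24 h and 1.19 at 72 h, with all genes at −0.01, 0.01 and 0.03. The counts at 24 h and the lower counts at 6 h and 72 h were close to or below the share in all genes. All 8 were called in the test of any difference from sham, as were 78.4% of all genes, so that count says little about the members.

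**Figure D2:**
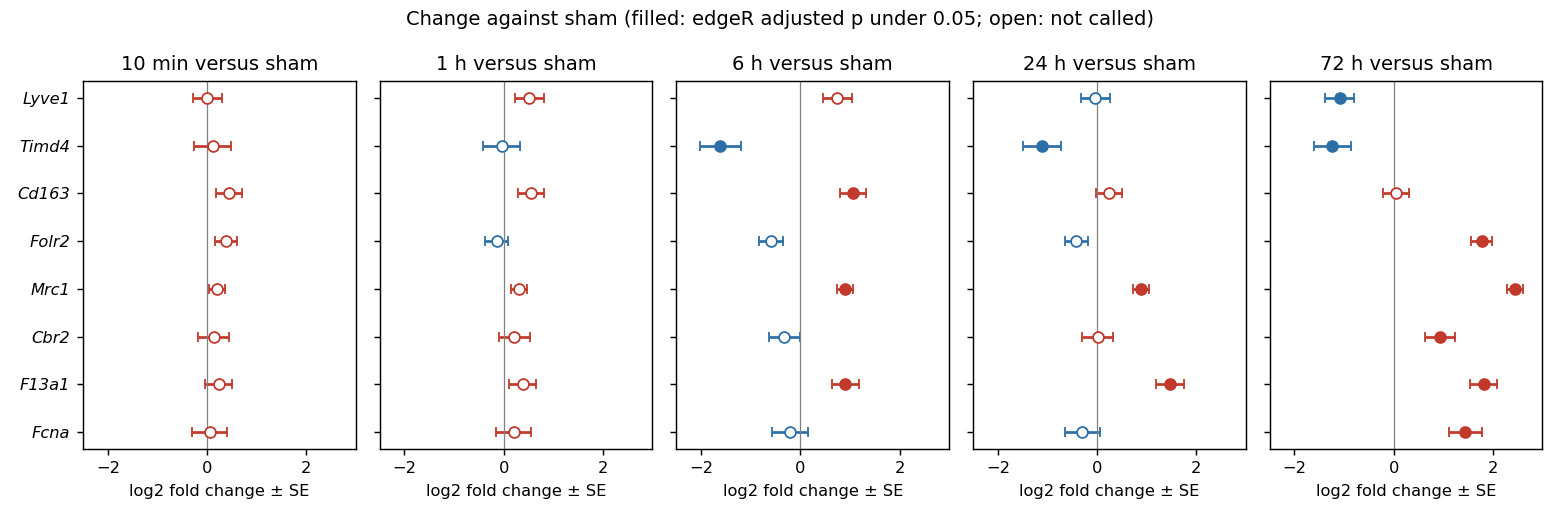
Log2 fold change against sham ± SE (horizontal axis) for 8 members (rows) in 5 panels by time after ligation, from edgeR; filled points had an adjusted p below 0.05. At 72 h, 5 members lay to the right and Lyve1 and Timd4 to the left, and at 10 min and 1 h all points are open.

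Lyve1, the hyaluronan receptor (ENSMUSG00000030787, chr7:110850607-110863239, minus strand, GENCODE M21 on GRCm38 as for the other members), had its highest mean at 6 h and its lowest at 72 h. Its level was 24.6, 29.6 and 29.7 CPM in the 3 sham hearts, 48.5, 52.4 and 39.9 CPM at 6 h, and 18.7, 9.38 and 11.4 CPM at 72 h. The 6 h libraries lay above all sham libraries and the 72 h libraries below all of them. Lyve1 fell 2.12-fold from sham to 72 h (log2 change −1.09, SE 0.29, adjusted p = 0.00424), a call lost with library-size scaling (log2 change −0.51, adjusted p = 0.108) and with limma on log2(FPKM + 1) or log2(FPKM + 0.1), where FPKM is the deposited length- and depth-scaled value (adjusted p = 0.0800 and 0.0687). The 6 h value of 0.75 (SE 0.29) was not called, at an adjusted p of 0.0635. Between 24 h, at 37.6, 25.6 and 18.7 CPM, and 72 h it was lower again (log2 change −1.05, adjusted p = 0.00726; −0.75 and adjusted p = 0.0524 without 24 h replicate 1). In order of group mean it stood at 46.9 ± 6.37 CPM at 6 h, 40.0 ± 10.5 at 1 h, 28.2 ± 7.45 at 10 min, 27.9 ± 2.91 in sham, 27.3 ± 9.58 at 24 h and 13.2 ± 4.93 at 72 h. Each neighbouring pair in that order overlapped between libraries.

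Timd4, whose product binds phosphatidylserine and helps tether dying cells (ENSMUSG00000055546, chr11:46810800-46844332, plus strand), was the only member called lower at 6 h, and it was lower at all 3 later times. It was also the scarcest tested member, with 38, 35 and 36 counts in the sham libraries and 8, 19 and 6 counts at 6 h, so counting error is large. In CPM, sham gave 1.92, 1.82 and 1.60, and 6 h gave 0.477, 0.909 and 0.320. The 24 h libraries held 0.950, 0.920 and 0.567 CPM and the 72 h libraries 1.14, 0.518 and 0.605 CPM. Every library of the 3 later groups lay below every sham library. Timd4 was 3.05-fold lower at 6 h (log2 change −1.61, SE 0.42, adjusted p = 0.00794), 2.15-fold lower at 24 h (−1.11, SE 0.39, adjusted p = 0.0277) and 2.35-fold lower at 72 h (−1.23, SE 0.38, adjusted p = 0.00811). Library-size scaling ended the later calls, with log2 change −0.91 and adjusted p = 0.0650 at 24 h and −0.66 and 0.131 at 72 h. Both limma fits on log2 FPKM, which is scaled to library size as well, also lost them. Their adjusted p were 0.0529 and 0.0535 at 24 h and 0.0933 and 0.0983 at 72 h. The 24 h call was also lost without sham replicate 1, sham replicate 2 or 24 h replicate 3, at adjusted p of 0.0736, 0.0616 and 0.0979. Means of 1.94 ± 0.845 CPM at 10 min, 1.78 ± 0.164 in sham and 1.73 ± 0.463 at 1 h overlapped, as did 0.812 ± 0.213 at 24 h, 0.753 ± 0.335 at 72 h and 0.568 ± 0.305 at 6 h, with a gap between these sets of groups.

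Cd163, the scavenger receptor that takes up haemoglobin with haptoglobin (ENSMUSG00000008845, chr6:124304656-124330527, plus strand), rose at 6 h and was back near the sham level at 24 h and 72 h. Sham hearts gave 17.1, 18.9 and 18.1 CPM, and 6 h hearts 34.2, 43.2 and 36.1 CPM. The 6 h libraries were above every library of the other 5 groups. Cd163 was 2.09-fold higher at 6 h than in sham (log2 change 1.07, SE 0.26, adjusted p = 0.00721). At 24 h it stood at 26.4, 16.5 and 20.9 CPM and was lower than at 6 h (log2 change −0.83, SE 0.26, adjusted p = 0.0261), a call that 8 of 15 alternatives lost, 4 of them by leaving out 1 library. At 72 h, with 27.3, 13.5 and 15.3 CPM, the log2 difference from sham was 0.05 (SE 0.26, adjusted p = 0.880). It became 0.63 with library-size scaling (adjusted p = 0.0371), close to the shift of all genes. The remaining means, 26.4 ± 8.43 CPM at 1 h, 24.6 ± 2.83 at 10 min, 21.3 ± 4.96 at 24 h, 18.7 ± 7.50 at 72 h and 18.1 ± 0.897 in sham, overlapped from one to the next.

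Mrc1, the macrophage mannose receptor CD206 (ENSMUSG00000026712, chr2:14229392-14332057, plus strand), had the largest change among the 8 tested members at 72 h. Sham libraries held 20.6, 24.4 and 28.4 CPM, and 72 h libraries 134, 143 and 126 CPM. The 72 h libraries were above every other library. The increase over sham was 5.47-fold (log2 change 2.45, SE 0.16, adjusted p = 7.66e-10). It was already higher at 6 h, at 42.1, 55.9 and 38.8 CPM (log2 change 0.90, SE 0.16, adjusted p = 5.23e-04), and at 24 h, at 48.3, 50.1 and 37.6 CPM (log2 change 0.89, SE 0.16, adjusted p = 2.96e-04). The means of 45.6 ± 9.09 CPM at 6 h and 45.3 ± 6.72 CPM at 24 h differed by −0.01 on the log2 scale (SE 0.16), and their libraries lay above the 1 h (30.2 ± 5.55 CPM), 10 min (28.1 ± 2.69) and sham (24.5 ± 3.88) groups, which overlapped.

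Folr2, folate receptor beta (ENSMUSG00000032725, chr7:101839988-101857194, minus strand), had its lowest group means at 6 h and 24 h and its highest at 72 h. Its libraries held 4.20, 3.63 and 3.78 CPM in sham, 2.80, 2.78 and 2.13 CPM at 6 h, and 17, 12.6 and 10.1 CPM at 72 h. All 6 h and 24 h libraries were below sham and all 72 h libraries above every other library. The 72 h rise was 3.42-fold over sham (log2 change 1.77, SE 0.22, adjusted p = 9.20e-07) and 4.56-fold over 24 h (2.19, SE 0.22, adjusted p = 2.51e-07). The 6 h value of −0.59 (SE 0.23) was not called at an adjusted p of 0.0677, and was called with library-size scaling (−0.70, adjusted p = 0.0331) and with limma on log2(FPKM + 0.1) (−0.67, adjusted p = 0.0259). Of the 1546 exonic bases of Folr2, 975 are shared with Gm10602 on the opposite strand, which had 632 counts in all libraries together. Whether the counting used strand is not given in the sources used here, so reads from the pair may not be separable.

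Fcna, which encodes ficolin A, a secreted lectin that starts the lectin pathway of complement (ENSMUSG00000026938, chr2:25624666-25628030, minus strand), was highest at 72 h. Sham libraries held 2.73, 1.97 and 1.95 CPM and 72 h libraries 8.52, 4.72 and 4.90 CPM, with no overlap. It was 2.72-fold higher at 72 h than in sham (log2 change 1.45, SE 0.33, adjusted p = 8.01e-04) and 3.35-fold higher than at 24 h (1.74, SE 0.33, adjusted p = 2.57e-04). The 5 earlier groups had means between 1.79 ± 0.663 CPM at 24 h and 2.55 ± 0.427 CPM at 1 h and overlapped.

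Cbr2, a carbonyl reductase that marks tissue macrophages (ENSMUSG00000025150, chr11:120729489-120732114, minus strand), changed least of the 5 members higher at 72 h. Sham gave 13.8, 15.8 and 15.5 CPM, and 72 h gave 37.9, 23.2 and 25.1 CPM. All 72 h libraries were above those of the other groups, and 72 h replicate 1 stood apart from the other two. Cbr2 was 1.91-fold higher than in sham (log2 change 0.94, SE 0.31, adjusted p = 0.0139), and without 72 h replicate 1 the call was lost (0.69, adjusted p = 0.0761). The rise over 24 h (0.92, SE 0.30, adjusted p = 0.0196) was lost in 4 of 15 alternatives, among them without 72 h replicate 1 (0.67, adjusted p = 0.101) and without 24 h replicate 3 (0.63, adjusted p = 0.0637). At 6 h its libraries spread from 7.75 to 18.1 CPM, around a mean of 11.9 ± 5.44 CPM.

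F13a1, the A subunit of coagulation factor XIII, a transglutaminase that cross-links fibrin and is made by macrophages and platelets (ENSMUSG00000039109, chr13:36867178-37050244, minus strand), was higher than sham at all 3 later times. It stood at 32.4, 35.7 and 41.2 CPM in sham, 71.1, 86.0 and 48.0 CPM at 6 h, 86.9, 64.2 and 152 CPM at 24 h, and 141, 126 and 118 CPM at 72 h. Libraries of all 3 later groups lay above all sham libraries, and each of these groups overlapped the next. The rise over sham was 1.88-fold at 6 h (log2 change 0.91, SE 0.27, adjusted p = 0.0224), 2.77-fold at 24 h (1.47, SE 0.27, adjusted p = 6.89e-04) and 3.52-fold at 72 h (1.81, SE 0.28, adjusted p = 3.38e-05). The 6 h call was lost in 6 of 15 alternatives, with log2 changes from 0.67 to 0.90; 4 of them left out sham replicate 1, sham replicate 2, 6 h replicate 1 or 6 h replicate 2 (adjusted p = 0.0818, 0.0638, 0.0672 and 0.0885). The library at 152 CPM, 24 h replicate 3, also had the highest summed level of recruited monocyte and macrophage markers in its group, 2237 CPM against 719 and 531, and of platelet markers, 33.3 CPM against 14.1 and 6.26. Without it, the 24 h mean of F13a1 was 75.5 CPM instead of 101 ± 45.8 CPM. The part of these markers in the result was not tested.

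**Figure D3:**
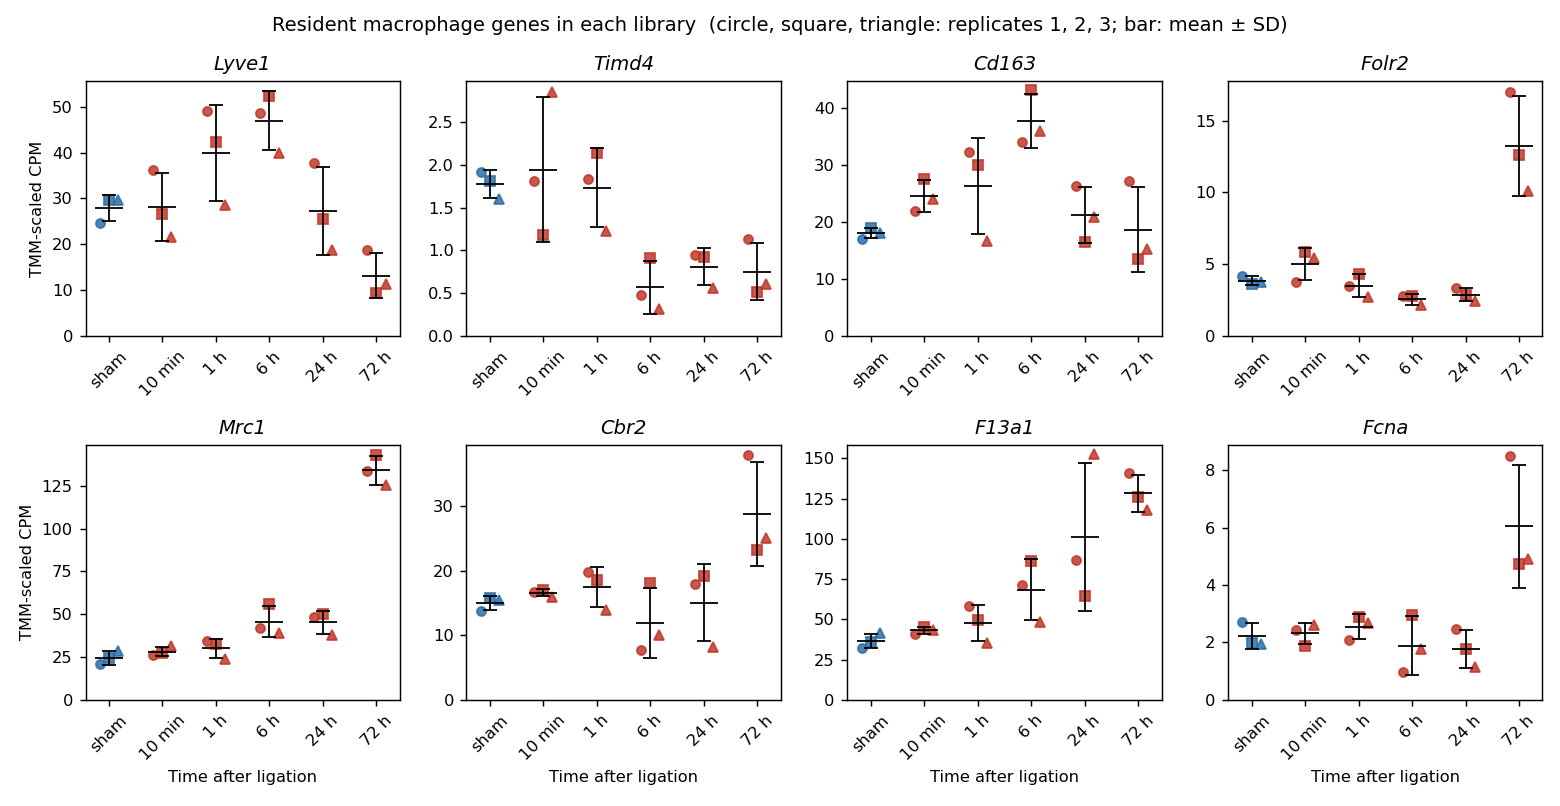
TMM-scaled CPM (vertical axes) of the 8 tested members in each of 18 libraries, by time after ligation; circles, squares and triangles are replicates 1, 2 and 3 and bars show mean ± SD. Lyve1 and Cd163 have their highest means at 6 h, Timd4 is lowest from 6 h on, and Mrc1, Folr2, Fcna and Cbr2 have no 72 h library that overlaps another group.

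Between neighbouring times, no member was called from 10 min to 1 h, where 0.307% of all genes were called, and 1 (Folr2, log2 change −0.52, SE 0.23) had an unadjusted p below 0.05. From 1 h to 6 h, Mrc1 rose (log2 change 0.59, SE 0.16, adjusted p = 0.0112), beside 14.5% of all genes, and Timd4 fell (−1.57, SE 0.42, adjusted p = 0.0113), beside 10.0%. The Mrc1 step was lost in 4 alternatives, among them without 1 h replicate 3 or 6 h replicate 2 (adjusted p = 0.0648 and 0.0619), and the Timd4 step without 6 h replicate 3 (adjusted p = 0.0513). From 6 h to 24 h, no member was called higher, beside 14.2% of all genes, and Cd163 alone was lower, beside 13.7%. Lyve1 had a log2 change of −0.78 (SE 0.29) in the same interval at an adjusted p of 0.0547, with all its 24 h libraries below all 6 h libraries. From 24 h to 72 h, 4 members rose (Mrc1, Folr2, Fcna, Cbr2), beside 24.4% of all genes, and Lyve1 fell, beside 26.1%. Mrc1 rose 2.95-fold in that interval (log2 change 1.56, SE 0.16, adjusted p = 2.81e-07). F13a1 had a log2 change of 0.34 (SE 0.27, adjusted p = 0.303), which became 0.76 (adjusted p = 0.00955) without 24 h replicate 3.

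The members were also set against the 18 pan-macrophage genes. The measure was the log2 CPM of a member minus the mean log2 CPM of the 18 pan-macrophage genes in the same library, with 0.5 added to each CPM, and is given as a description without a test. The pan-macrophage mean itself was 0.42 higher at 6 h, 1.40 higher at 24 h and 3.41 higher at 72 h than in sham on this log2 scale, so a gene with no change of its own falls in this ratio by the same amounts. At 72 h the ratio differed from sham by −4.52 for Lyve1, −4.30 for Timd4, −3.43 for Cd163, −2.53 for Cbr2, −2.18 for Fcna, −1.79 for Folr2, −1.61 for F13a1 and −0.97 for Mrc1. The added 0.5 shrinks changes of scarce genes. Timd4, at 1.78 CPM in sham and 0.753 CPM at 72 h, is thus understated at each later time. In the edgeR fit Timd4 had the larger fall at 72 h (log2 change −1.23, against −1.09 for Lyve1), so the order of this pair is not read. The 72 h libraries of all 8 lay below all sham libraries, as did those of 97.1% of all genes, so the count is no trait of the members, and the sizes are the description. When Csf1r alone replaced the 18 genes, 7 members lay below, beside 92.6% of all genes, and Mrc1 overlapped sham with a difference of 0.08. Mrc1 thus rose less than the pan-macrophage mean and by about as much as Csf1r.

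At 24 h, 7 members lay below all sham libraries in the ratio to the 18 genes, beside 91.5% of all genes, and F13a1 overlapped them with a difference of −0.03. At 6 h, Timd4 (−1.55), Folr2 (−0.94) and Cbr2 (−0.83) lay below all sham libraries, Cd163 (0.62) and F13a1 (0.45) above, and Lyve1, Mrc1 and Fcna overlapped. At that time 40.7% of all genes lay below and 6.91% above. The 18 genes did not move together at 6 h. Against sham, 9 were called higher, among them Cd14 and Spi1, and 3 lower: Cx3cr1 (log2 change −2.46), Aif1 (−1.05) and Adgre1 (−0.47). Csf1r, at −0.36, was not called. The 6 h ratio is therefore set against a mixed reference and is no measure of change per macrophage. The part of other cells in that reference was not tested. In single libraries, the Lyve1 ratio ran from 0.88 to 1.0 in sham, from 0.982 to 1.42 at 6 h, from −1.33 to 0.126 at 24 h and from −3.90 to −3.03 at 72 h.

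**Figure D4:**
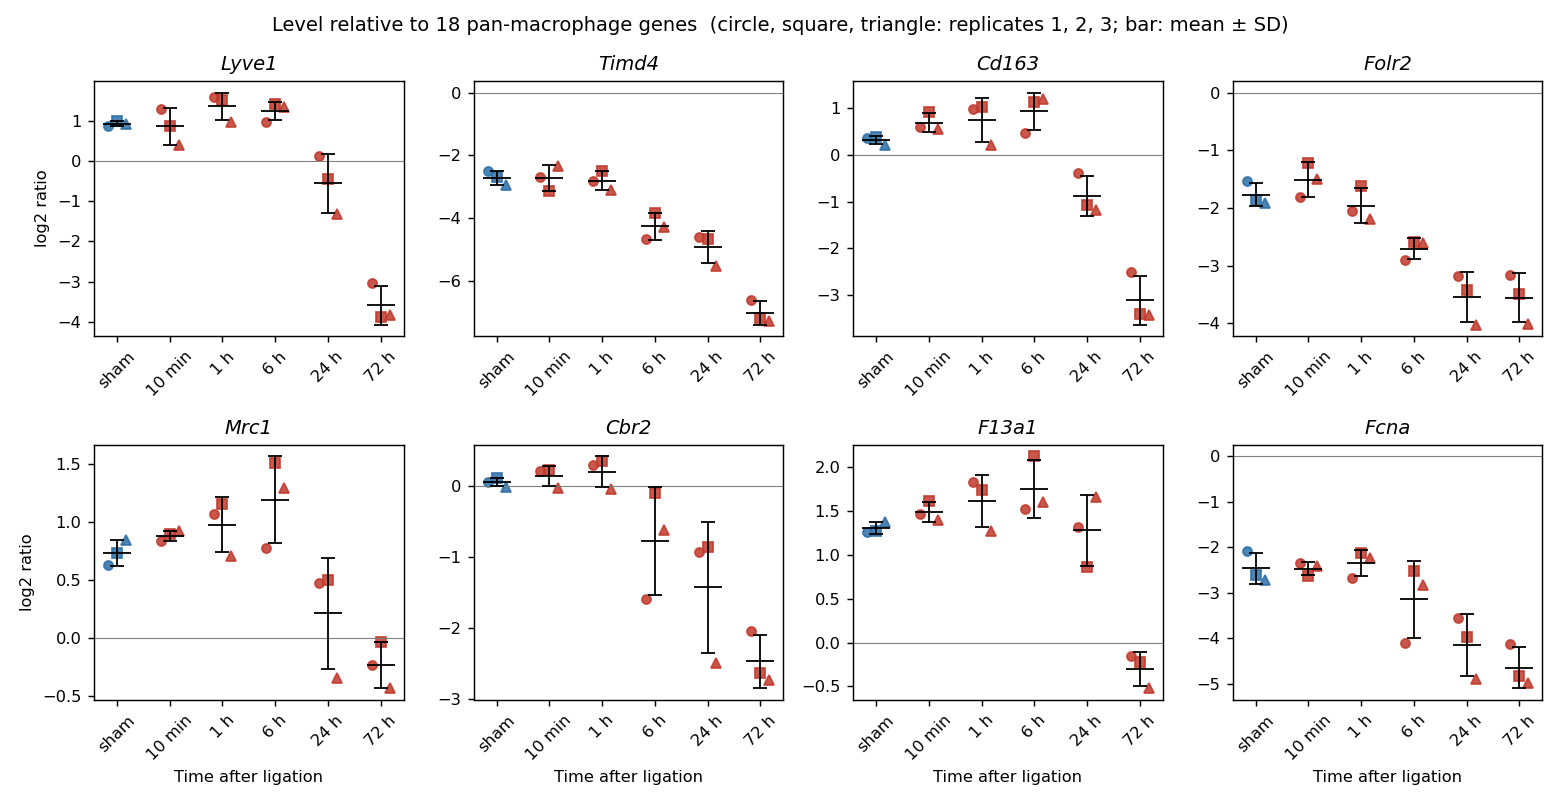
Log2 ratio of each member to the mean of 18 pan-macrophage genes (vertical axes) in 18 libraries, by time after ligation; symbols are replicates 1, 2 and 3 and bars show mean ± SD. All 8 members, like 97.1% of all genes, lie below their sham libraries at 72 h, from −0.97 for Mrc1 to −4.52 for Lyve1 as differences of means. A constant added to each CPM makes the Timd4 difference smaller than it would otherwise be.

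Members were also compared by how their log2 CPM varied over the 18 libraries. The points share the 6 time groups and the same libraries, so the correlations describe time courses and carry no p. Cbr2 and Fcna had a Pearson r of 0.88, Mrc1 and F13a1 0.84, Folr2 and Fcna 0.83, Folr2 and Cbr2 0.77, and Lyve1 and Cd163 0.76. The lowest was −0.71, between Lyve1 and Folr2. By group means, the 8 genes ran along at least 3 courses: high at 6 h (Lyve1, Cd163), low from 6 h (Timd4), and high at 72 h (the other 5). These 5 did not share 1 course before 72 h. F13a1 had an r of only 0.27 with Cbr2, 0.32 with Fcna and 0.43 with Folr2. It and Mrc1 were already called higher than sham at 6 h, and the other 3 were not.

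Among 11669 other genes with at least 50 counts on average, those closest to each member were named by rule, 3 a member. Closest to Lyve1 were Homer1 (r = 0.94), Zbtb16 (0.94) and Lrrc10 (0.93), and closest to Timd4 were Abca8b (0.91), Abca8a (0.89) and Mmp15 (0.89). For Cd163 they were C7 (0.90), Syn2 (0.89) and Dapk1 (0.85). For Folr2 they were Ephb6 (0.96), Antxr1 (0.95) and Col6a1 (0.95), a collagen VI chain. For Mrc1 they were Ms4a6b, Npl and Iqgap2 (each 0.97), and for F13a1 they were Nfam1, Fcgr3 and Alox5ap (each 0.96). Fcgr3 encodes a low-affinity Fc receptor, and Alox5ap the protein that presents arachidonate to 5-lipoxygenase. Closest to Cbr2 were Fcna (0.88), Cenpq (0.87) and Gpr34 (0.86), and closest to Fcna were Snx24 (0.90), Glb1 (0.89) and Sptssa (0.89).

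The wider macrophage programme moved with time as follows, each list by its counts of called genes against sham. All 18 pan-macrophage genes were higher at 72 h (median log2 change 3.52), 14 at 24 h (1.33) and 9 at 6 h, when 3 were lower (0.46). Lyz2, the macrophage lysozyme, rose by 4.19 on the log2 scale at 72 h, Cd68 by 4.78 and Adgre1, which encodes F4/80, by 3.94. Of 13 markers of recruited monocytes and macrophages, 9 were higher at 6 h, 12 at 24 h and 13 at 72 h (median 6.15), with log2 changes from 2.76 to 12.7. The smallest adjusted p at 72 h belonged to Gpnmb (log2 change 8.0), Trem2 (6.15) and Fabp5, which had the smallest change of the 13 (2.76). Their summed level went from 65.0 ± 7.87 CPM in sham to 3087 ± 249 CPM at 72 h.

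Of 15 further genes linked to resident macrophages, 13 were tested. At 6 h, 2 were higher and 3 lower (median 0.02), at 24 h 7 and 3 (0.60), and at 72 h 9 and 1 (2.39). Stab1, a scavenger receptor, went from 87.9 ± 8.81 CPM in sham to 481 ± 21.6 CPM at 72 h (log2 change 2.45, SE 0.11, adjusted p = 6.02e-12). Igf1, a growth factor, had a log2 change of 3.11 and the chemokine gene Ccl8 one of 6.93 at 72 h. The gene that was lower, named after its values were seen, was Mgl2, a C-type lectin (−0.88, SE 0.33, adjusted p = 0.0298), and its call was lost with library-size scaling. Of 6 growth factors and receptors of macrophages, Csf1r (2.38), Csf2ra (2.30) and Csf2rb (4.87) were higher at 72 h and none was lower. The others, named as the remainder, were the ligand genes Csf1 (−0.17, adjusted p = 0.419), Il34 (−0.46, adjusted p = 0.0822) and Csf2 (3.06, SE 2.56, adjusted p = 0.308). Csf1 lay on the higher side, and was called, with library-size scaling.

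Genes that work with the members were taken from a list of 22, of which 17 were tested. Of these, 9 were higher and 2 lower at 6 h, 10 and 1 at 24 h, and 13 and 0 at 72 h (median 1.03). With library-size scaling all 17 were higher at 72 h, which turned the sign of Gas6 and Mfge8, neither of them called with TMM. On the haemoglobin side of Cd163, Hmox1, haem oxygenase, averaged 5.23 ± 0.768 CPM in sham, 101 ± 18.4 CPM at 6 h and 340 ± 31.0 CPM at 72 h (log2 change 4.27 and 6.02, adjusted p = 9.78e-05 and 5.36e-07). Hp, haptoglobin, had a log2 change of 5.79 at 6 h and 6.06 at 72 h. Blvrb, biliverdin reductase B (1.79), and Slc40a1, the iron exporter (1.26), were higher at 72 h.

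For hyaluronan, the ligand of Lyve1, the synthase Has1 was higher at 6 h (log2 change 5.11), 24 h (4.29) and 72 h (3.06). Has2 was higher at 24 h (2.41) and 72 h (3.42), and its 6 h value of 1.33 was not called (adjusted p = 0.0691). Cd44, the other main hyaluronan receptor, was higher at 6 h (2.90), 24 h (3.26) and 72 h (3.25). Among genes for taking up dying cells, Pros1, a bridging ligand, was higher at 72 h (1.03), as were the receptors Mertk (1.29) and Axl (0.71). Gas6, the other bridging ligand of these receptors on the list, was lower at 6 h (−0.42, adjusted p = 0.0173) and 24 h (−0.44, adjusted p = 0.00836), with a log2 change of −0.14 at 72 h (adjusted p = 0.314), when Mfge8 was at −0.02 (adjusted p = 0.830). The 24 h call of Gas6 was lost with library-size scaling. The folate carrier Slc46a1 was lower at 6 h (−1.55, SE 0.31, adjusted p = 0.00127) and higher at 72 h (0.73, SE 0.26, adjusted p = 0.0193). At 6 h the other folate genes on the list were higher: Slc19a1, the reduced folate carrier (0.59, SE 0.19, adjusted p = 0.0242), and Fpgs, which adds glutamate to folates (0.75, SE 0.19, adjusted p = 0.00693). Library-size scaling ended the Slc19a1 call. Of the fibrin and complement partners, Tgm2, tissue transglutaminase, was higher at 6 h (1.09), 24 h (1.43) and 72 h (0.49). Masp1, a serine protease of the lectin pathway, was higher at 24 h (1.34), while Fga, Fgb, Fgg and Masp2 were too low to test.

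Relatives of the members could be tested for 10 of 19 listed genes, of which 8 were higher and 1 lower at 72 h. Mrc2, a collagen receptor of the mannose receptor family, fell by 0.60 at 6 h (SE 0.14, adjusted p = 0.00331) and rose by 2.33 at 72 h (SE 0.14, adjusted p = 1.47e-10) on the log2 scale. Cd209a, which unlike Cd209f and Cd209g could be tested, went from 0.0999 ± 0.0537 CPM in sham to 3.63 ± 0.0816 CPM at 72 h (log2 change 5.13, SE 0.48, adjusted p = 3.49e-08). Havcr2, the TIM-3 gene related to Timd4, had a log2 change of 5.08 and Folr1, related to Folr2, one of 3.36 at 72 h. Cbr3 was higher (1.56) and Cbr1 lower (−0.80, SE 0.17, adjusted p = 3.80e-04) at 72 h, the latter call being lost with library-size scaling.

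Several members are also made by other cells, whose markers moved too. Lyve1 is a gene of lymphatic endothelium: its 6 markers summed to 103 ± 7.86 CPM in sham, 116 ± 18.4 at 6 h and 104 ± 7.55 at 72 h, and none was at 0. Of the 5 tested, Prox1 (−1.10, SE 0.17) and Flt4 (−0.38, SE 0.13) were lower and Pdpn (3.21, SE 0.34) higher at 72 h, and library-size scaling turned the sign of Flt4. F13a1 and Pf4 are platelet genes: 6 platelet markers summed to 4.06 ± 1.20 CPM in sham, 20.1 ± 19.3 at 6 h, 17.9 ± 13.9 at 24 h and 14.1 ± 2.78 at 72 h. Dendritic cell markers, 6 in number, summed to 28.1 ± 1.09 CPM in sham and 25.3 ± 0.903 CPM at 72 h, 4 of 6 being higher and 2 lower. Most of that sum was Zbtb46, at 23.0 ± 1.07 CPM in sham and 12.7 ± 1.10 at 72 h. Zbtb46 (log2 change −0.86) and Clec9a (−0.70) were lower, and library-size scaling ended both calls. The higher ones were Cd209a (5.13), Flt3 (5.00), Batf3 (2.31) and Xcr1 (1.40). Neutrophil markers, 6 in number, summed to 2.74 ± 0.728 CPM in sham, 365 ± 332 at 6 h, 280 ± 328 at 24 h and 50.3 ± 5.31 at 72 h. Mesothelial markers, 5 in number, summed to 17.4 ± 5.08 CPM in sham and 31.9 ± 22.5 CPM at 72 h, and 3 lung epithelial markers to at most 0.145 CPM in a library. All 7 cardiomyocyte markers were lower at 72 h (median log2 change −2.03), 5 at 24 h and 1 at 6 h. The part of these cell types in the members' results was not tested.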

How the data were processed

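Members and gene lists were chosen with earlier results of these data known; the few genes named beyond them followed fixed rules: all 10 members, the 3 genes of each list with the smallest adjusted p at 72 h, list genes that are relatives or partners of a member, and the 3 genes of highest correlation with each member. The deposited tables hold gene counts and FPKM per mouse. Per the submitters' processing notes, cutadapt 1.18, HISAT2 2.1.0 and featureCounts were used with mm10; the annotation and strand setting are not given in the sources used here. The counts as deposited by the authors were tested; depth was 18199172 to 25062351 per library. Ensembl IDs were named from GENCODE M21 for 30489 of 30583 genes. The FPKM deposited by the authors gave a whole gene length for 100% of 10452 genes (within 0.01 base), equal to the M21 exon length for 91.9% of named genes. The FPKM columns of 6 h replicates 2 and 3 held each other's counts and were exchanged. FPKM was used for lengths and alternatives only. It is scaled by total counts, so the limma fits share their scaling with the library-size setting and are no separate check of it.

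Genes were filtered with filterByExpr (16311 kept, 14272 removed), scaled with TMM and fitted with edgeR 4.0.16 in R 4.3.3 (glmQLFit robust, 1 mean per group, 18 libraries, two-sided, Benjamini-Hochberg). On data simulated for 72 h against sham over 15109 genes, the test recovered 63% of 2-fold and 94% of 4-fold changes with 6 false calls. There, 100 genes changed at each fold, as many up as down, and all others kept their sham level. The simulation thus does not cover a shift of many genes, as in the real 72 h libraries. With 3 mice a group, the edgeR p-values set each difference against a spread between mice. That spread was estimated over all 18 libraries, with information shared between genes. Alternatives were 2 other scalings, 2 filters, a replicate block, a fit of the 6 libraries compared, DESeq2 1.42.0, limma 3.58.1 on log2 FPKM with 2 pseudocounts, and leaving out each library. Promoters came from RefSeq (GRCm38.p6); 8 of 10 members had a stretch before the annotated gene, Lyve1 having no entry and Cd209g a start inside the gene. Drawings used matplotlib 3.10.9.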

Additional observations from a re-analysis of the deposited data

How the results depend on the processing

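Of 1254 values of a member in a comparison under another setting, 1191 had the same outcome as the main fit, 43 lost a call and 20 gained one. The 1191 include values called in neither fit, so they are not a count of calls kept. In comparisons between groups, 0 changed sign where either fit called the gene, and 54 changed sign with no call in either. The test of any difference from sham has no single direction, and signs were not compared there. Its largest log2 change for Lyve1 ran from −1.43 to 0.64 over the settings. The 72 h calls of Mrc1, Folr2, F13a1 and Fcna against sham held in all 15 alternatives, with log2 changes of 2.34 to 3.03, 1.55 to 2.35, 1.73 to 2.40 and 1.12 to 2.03. The number of members called against sham was 4 at 6 h (3 to 5 under other settings, 3 to 4 leaving out 1 library), 3 at 24 h (2 to 3 in both) and 7 at 72 h (5 to 7 and 6 to 7), and it was 5 at 72 h against 24 h (4 to 6 and 4 to 5). The last lost Lyve1 and gained F13a1 with library-size scaling, and gained F13a1 with both limma fits; the filter of at least 10 counts in every library removed Timd4 from all comparisons. The numbers that moved by over 1.5 times were these. At 10 min against sham it went from 0 to 1 (Cd163, log2 change 0.44, adjusted p = 0.0198) in the fit of only the 6 libraries compared. At 6 h against 1 h it went from 2 to 1 with at least 10 counts in every library, which removed Timd4, and with either limma fit, and leaving out 1 library gave 1 to 2. At 24 h against 6 h it went from 1 to 0 with no filter on low counts and to 2 with at least 10 counts in every library, with DESeq2 and with the replicate block, and leaving out 1 library gave 0 to 2. The cause was not tested. Lyve1 at 6 h against sham was called in the 6-library fit (adjusted p = 0.00289) and by DESeq2 (adjusted p = 0.0256). At 24 h against 6 h, F13a1 was called higher with library-size scaling (0.86), both limma fits and without 24 h replicate 2, and without 6 h replicate 2 Cbr2 was called lower at 6 h against 1 h (−0.98). In the test of any difference from sham, Cd163 was lost with library-size scaling, with no filter or without 6 h replicate 2, and Cbr2 with no filter or without 72 h replicate 1.

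Over all genes, 12 were called at 10 min (360 in the 6-library fit, 58 by DESeq2, 26 with no filter, 2 and 4 in the limma fits, 0 to 5 leaving out 1 library), 48 at 1 h (190 in the 6-library fit, 93 by DESeq2, 31 to 39 leaving out 1 library) and 50 at 1 h against 10 min (244, 127 and 6 to 40). At 6 h, 4639 genes were called, and 2926 without 6 h replicate 1. At 6 h against 1 h, 4003 were called, and 2481 without 6 h replicate 1. At 24 h against 6 h, 4541 were called, 6880 with library-size scaling and 1024 in the 6-library fit; library-size scaling moved the higher share from 50.9% to 88.0% there and from 48.4% to 81.5% at 72 h against 24 h.

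Replicate numbers did not pair the mice: same-numbered libraries of different groups had a mean correlation of 0.0156 in their deviations from group means (−0.256 to 0.252 over 45 pairs), and 6 of 18 libraries correlated best with their own number. With the replicate number as a block, members called against sham were 0 at 10 min and 1 h, 5 at 6 h, 3 at 24 h and 7 at 72 h, the additional call being Lyve1 at 6 h (log2 change 0.72, adjusted p = 0.0197), and 2 at 24 h against 6 h, again with Lyve1 (−0.83, adjusted p = 0.00948). Depth limits Timd4, Cd209f and Cd209g most.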

Other observations

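In 4 of the 6 groups, 1 library held the highest or the lowest level of at least 6 of the 8 tested members. At 6 h, replicate 2 had the highest level of 7 (beside 32.8% of all genes), and at 72 h replicate 1 had the highest level of 7 (34.2% of all genes). At 1 h, replicate 3 had the lowest level of 7 (34.7% of all genes). At 24 h, replicate 3 had the lowest level of 6 members (39.2% of all genes) and the highest of F13a1. In sham and at 10 min no library had the highest level of more than 4 members, and sham replicate 1 had the lowest level of 5. The summed cardiomyocyte markers in that 24 h library were 27097 CPM, against 40901 and 39940 CPM in the others of its group, and its neutrophil markers summed to 653 CPM, against 153 and 35.1 CPM. At 6 h the library with the highest neutrophil sum was replicate 1, at 737 CPM, against 260 and 97.0 CPM, and it had the lowest Cbr2 and Fcna levels of its group. The part of these markers in the members' levels was not tested.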
